A study of Mus musculus with 9 samples.

Results

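The genes described here were 9 members of the tubulin family: the alpha-tubulin genes Tuba1a, Tuba1b, Tuba1c and Tuba4a, and the beta-tubulin genes Tubb2a, Tubb2b, Tubb4b, Tubb5 and Tubb6. They were taken by symbol from the 23747 gene rows of single-nucleus RNA sequencing (sNuc-seq) tables of mouse hearts. The 9 hearts came from 9 C57BL/6 mice, 8 weeks old, in 3 groups of 3, and the tissue was taken from below the site of ligation. Sham mice were gavaged with vehicle for 7 days and operated on with needles alone, with nothing ligated. Mice of the ischemia-reperfusion group (I/R) received vehicle for 7 days, then 30 min of ischemia by ligation of the left anterior descending coronary artery and 24 h of reperfusion. Mice of the SBP group received MUSKARDIA, the label's name for Shexiang Baoxin Pill, for 7 days and then underwent the ischemia and reperfusion of the I/R mice. All mice thus had gavage and an operation, and no group received the pill without injury.

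Alpha- and beta-tubulin join as a dimer, and these dimers polymerize into microtubules, the hollow filaments that carry cargo, shape the cell and form the mitotic spindle. Mammals make several alpha and several beta isotypes from separate genes, which differ most in their C-terminal tails, where enzymes add and remove tyrosine, glutamate and other groups. In cardiomyocytes, detyrosinated microtubules are known to resist contraction. Dividing and migrating cells build new microtubules, and free tubulin dimers are known to trigger the decay of tubulin mRNA as it is translated.

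The tables held 49171 nuclei and 135423853 unique molecular identifiers (UMIs, 1 per captured molecule). The samples held 4576 to 6418 nuclei, 10329520 to 18205985 UMIs and a median of 1540 to 2031 UMIs per nucleus. A barcode sequence occurred in more than 1 sample for 290 of the 48881 barcode sequences. Nuclei were named from marker genes as cardiomyocytes (10550 nuclei; Ttn, Ryr2 and Myh6 among the markers), endothelial cells (13427; Pecam1, Cdh5), fibroblasts (14144; Dcn, Pdgfra), myeloid cells (9562; Adgre1, Csf1r), T cells (772), B cells (333), smooth muscle cells and pericytes (155) and Schwann cells (105). No tubulin gene was a marker, and tubulin rows were kept out of the genes used for clustering. The first 4 types and T cells had at least 20 nuclei in every mouse, but in T cells none of the 9 members reached the filter on low genes (166 CPM there), so the members were tested in the first 4. A level below is in CPM: the UMIs of a gene summed over the nuclei of a type in 1 mouse, per 1000000 UMIs of that sum after trimmed-mean (TMM) scaling. Levels of single clusters and of the 4 small types carry no TMM factor, so they are not on quite the same scale. Since UMIs tag 3′ ends, CPM needs no length correction, but the capture of different genes can differ.

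One library stood apart in its cardiomyocytes. Among cardiomyocytes, a cluster led by Mhrt and Myh7b held 88.01 to 95.23% of the sham nuclei, and in the I/R group it held 79.39% in replicate 1 but 0.11% and 4.1% in replicates 2 and 3. In SBP mice it held 0.74, 18.8 and 15.26%. Most other injured cardiomyocyte nuclei lay in a cluster led by Fstl4, Myh7 and Ankrd1. Within the injured groups, replicate 1 of I/R also had the highest Tuba1a, Tuba1b, Tubb2b and Tubb5 level of the 3 I/R mice in all 4 types, and replicate 3 the lowest Tuba1b and Tubb5 level in all 4. Counts of tubulin genes that passed the test are therefore given below with and without these mice where they differ.

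Positions are those of the GENCODE annotation of GRCm38. Tuba1b (98931425 to 98934565, minus strand), Tuba1a (98949837 to 98953703, minus strand) and Tuba1c (99029891 to 99038110, plus strand) lie together on chromosome 15. Tubb2a (34074274 to 34078007) and Tubb2b (34126748 to 34130466) lie together on the minus strand of chromosome 13. Tuba4a lies on chromosome 1 (75214228 to 75219865), Tubb4b on chromosome 2 (25222160 to 25224702) and Tubb5 on chromosome 17 (35833921 to 35838306), each on the minus strand. The isotypes are near-identical in places. Of the 411 windows of 90 bases in the last 500 bases of the transcript, 52.1% for Tuba1a, 60.1% for Tuba1b and 65% for Tuba1c also occurred in another gene, among them each other. For Tubb2a the share was 25.8% (Tubb2b and a pseudogene), for Tubb4b 12.7% (pseudogenes), and for Tuba4a, Tubb2b, Tubb5 and Tubb6 it was 0. The paper describes longer reads for these libraries than such windows, so these shares can exceed those of whole reads. How the authors' counting assigned such reads is not given in the sources used here, so the split of UMIs among Tuba1a, Tuba1b and Tuba1c is uncertain, and that of Tubb2a and Tubb4b less so. Tuba4a overlaps Stk16 and Tubb4b overlaps Fam166a on the other strand, while Tuba1a and Tuba1b overlap Gm49450 on their own strand.

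The 250 bases before the start of Tuba1c, Tubb5 and Tubb2a are shown because these 3 genes were the members called higher in both injured groups in fibroblasts. The sequences are RefSeq's for GRCm38.p6, 5′ to 3′ on the gene's strand, at chr15:99029641-99029890 (plus), chr17:35838302-35838551 (minus) and chr13:34078009-34078258 (minus). Capitals mark matches, on either strand, to CCAAT, to TATAAA, to GGGCGG and to TTTGAA.
Tuba1c: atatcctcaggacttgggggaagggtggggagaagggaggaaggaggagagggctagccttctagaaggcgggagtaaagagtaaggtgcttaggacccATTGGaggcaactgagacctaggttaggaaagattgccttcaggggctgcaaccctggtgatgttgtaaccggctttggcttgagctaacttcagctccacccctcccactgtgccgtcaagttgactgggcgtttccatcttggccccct
Tubb5: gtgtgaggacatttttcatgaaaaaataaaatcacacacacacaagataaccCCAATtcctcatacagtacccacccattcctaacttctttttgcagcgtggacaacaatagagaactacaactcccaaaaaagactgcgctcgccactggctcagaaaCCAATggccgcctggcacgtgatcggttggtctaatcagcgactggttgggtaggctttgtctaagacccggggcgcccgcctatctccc
Tubb2a: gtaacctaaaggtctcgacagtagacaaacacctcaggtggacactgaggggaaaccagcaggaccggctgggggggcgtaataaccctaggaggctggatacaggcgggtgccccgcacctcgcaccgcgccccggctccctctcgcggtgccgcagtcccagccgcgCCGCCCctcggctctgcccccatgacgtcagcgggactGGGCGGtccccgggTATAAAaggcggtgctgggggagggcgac
The Tuba1c window held 1 CCAAT match, on the opposite strand, and the Tubb5 window held 2. The Tubb2a window held 1 TATAAA match and 2 GGGCGG matches, 1 on each strand. No 2 of these matches overlapped, and none of the 3 windows held TTTGAA. Of 32851 promoter windows of this length, 33.8% held CCAAT, 12.4% TATAAA, 32.7% GGGCGG and 16% TTTGAA on either strand. The windows of these genes thus shared no one motif. RefSeq windows were found for 7 of the 9 members.

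The order of levels over the cell types differed between members and is described here over all 9 mice with no test. Tuba1a, the main alpha-tubulin of developing neurons, was highest in fibroblasts (47.9 ± 9.61 CPM, SD, n = 9), followed by endothelial cells (34.4 ± 6.74), myeloid cells (21.8 ± 6.71) and cardiomyocytes (7.21 ± 2.13). Ranges of neighbouring types overlapped except between myeloid cells (14.3 to 33.3) and cardiomyocytes (4.26 to 11.5). Tuba1b, a widely expressed alpha isotype, was at like levels in endothelial cells (36.5 ± 10.2), fibroblasts (34.1 ± 13) and myeloid cells (32 ± 10.3) and lower without overlap in cardiomyocytes (10.7 ± 3.81). Tuba1c had its highest mean in myeloid cells (31.1 ± 13.3), then 13.7 ± 4.33 in cardiomyocytes, 13.4 ± 8.65 in fibroblasts and 8.44 ± 6.91 in endothelial cells, and all neighbours in this order overlapped.

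Tuba4a, an alpha isotype abundant in adult heart and muscle and the only one of the 4 alpha members encoded without the terminal tyrosine, had its highest mean in cardiomyocytes (51.1 ± 24.4 CPM, n = 9). It was followed by endothelial cells (36.1 ± 33.9), myeloid cells (27 ± 21.1) and fibroblasts (19.4 ± 17.4). These SDs include the difference between groups described below. In sham mice alone, endothelial cells (78.9 ± 18.5, n = 3) were level with cardiomyocytes (78.2 ± 22.8). Transcripts of cardiomyocytes were present in the endothelial sums as well. A list of 12, described below, summed to a mean of 11310 CPM in sham endothelial cells and 20407 in sham cardiomyocytes. The part of cardiomyocyte RNA from outside the nucleus in these Tuba4a levels was not tested.

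Among the beta-tubulin genes, Tubb5, the widely expressed isotype, had means of 57.6 ± 19.8 CPM in endothelial cells, 54.7 ± 23.5 in fibroblasts, 49.4 ± 18.5 in myeloid cells and 11.6 ± 4.45 in cardiomyocytes. All neighbours overlapped, the last pair by 1 mouse on each side. Tubb4b, the isotype of cilia and many other microtubules, was 46.5 ± 13.2 in endothelial cells, 30.2 ± 4.31 in fibroblasts, 28.3 ± 5.96 in myeloid cells and 26.4 ± 7.84 in cardiomyocytes, with overlap throughout. Tubb2a was 30 ± 6.46 in myeloid cells, 24.5 ± 6.6 in fibroblasts, 20 ± 3.22 in endothelial cells and, with no overlap, 3.19 ± 1.25 in cardiomyocytes.

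Tubb6, a divergent beta isotype, was 26.8 ± 5.87 CPM in fibroblasts, 22 ± 6.38 in myeloid cells, 9.31 ± 4.13 in endothelial cells and 4.44 ± 1.12 in cardiomyocytes, with overlap between neighbours. Tubb2b was near the detection limit, at 3.03 ± 1.9 in fibroblasts (103 UMIs in all) and at 18 to 27 UMIs in each of the other 3 types. It passed the filter on low genes only in fibroblasts. The other 8 members passed in all 4 types. The 9 genes together reached 231 ± 21.1 CPM in sham fibroblasts, 279 ± 29 in sham endothelial cells, 241 ± 38.9 in sham myeloid cells and 145 ± 37.2 in sham cardiomyocytes (n = 3 each).

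**Figure D1:**
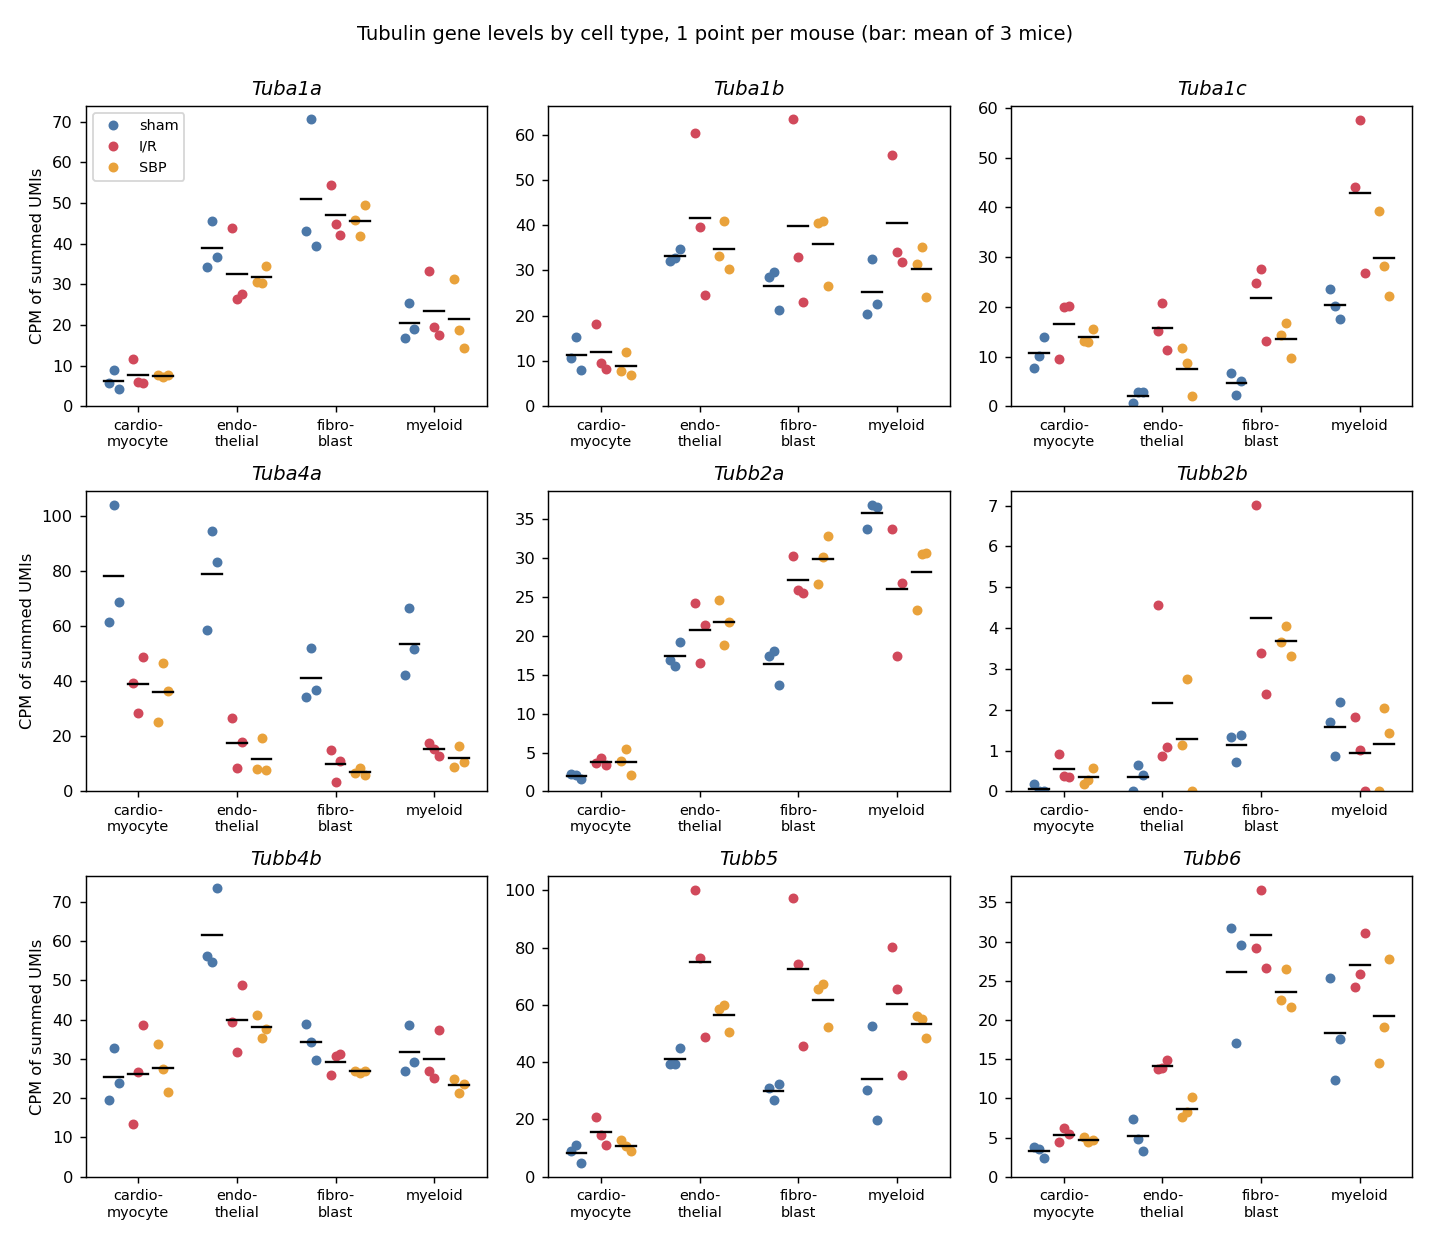
Level of each tubulin gene in CPM of UMIs summed per mouse and cell type, with 1 point per mouse, colours for sham, I/R and SBP, and a black bar at the mean of 3 mice. Tuba4a is highest in the sham mice in all 4 cell types, and Tuba1c in endothelial cells runs from 0.563 CPM in a sham mouse to 20.8 in an I/R mouse.

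I/R was compared with sham to see what injury changed. Tuba4a fell in endothelial cells, fibroblasts and myeloid cells, and Tuba1c rose in the same 3 types. Tubb5 and Tubb2a rose in fibroblasts and Tubb6 rose in endothelial cells. No member passed the test in cardiomyocytes. The nuclei of sham and I/R mice differed in their shares of clusters or subclusters within each type, as described below. A change was called at an adjusted p of at most 0.05 in limma over all genes tested and an absolute log2 fold change over 0.25. In this contrast 4 of 9 tested members were called in fibroblasts, where 11.3% of all tested genes were called. In endothelial cells 3 of 8 were called, beside 3.16% of all genes, in myeloid cells 2 of 8 beside 17.2%, and in cardiomyocytes 0 of 8 beside 0.829%. The myeloid share was thus near that of all genes. Tuba1c in endothelial cells and Tubb2b in fibroblasts passed the filter on low genes (4.11 and 2.75 CPM) through injured mice alone, with 0 of 3 sham mice reaching it, so they could be tested only if high there, and the counts and medians of those types include them. Over all genes tested, the groups did not overlap for 34.5% of the myeloid, 27% of the fibroblast, 20.9% of the endothelial and 16.4% of the cardiomyocyte genes. An unadjusted p under 0.05 was reached by 5 of 9 members in fibroblasts (25.5% of all genes), 5 of 8 in endothelial (17.9%) and 4 of 8 in myeloid cells (31.5%). The median log2 fold change of the tested members was 0.46 in fibroblasts, 0.23 in endothelial cells, 0.36 in myeloid cells and 0.41 in cardiomyocytes, where the median of all genes lay between -0.02 and 0.01.

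Tuba4a was lower in I/R. In endothelial cells it was 58.6, 94.8 and 83.3 CPM in the sham mice and 26.5, 8.68 and 18.1 in the I/R mice. In fibroblasts it was 34.5, 52.1 and 37 in sham and 15.2, 3.38 and 11.2 in I/R. In myeloid cells it was 42.2, 66.7 and 51.9 in sham and 17.7, 15.3 and 12.8 in I/R. Sham and I/R mice did not overlap in any of these types. The log2 fold change was -2.19 ± 0.41 (SE) in endothelial cells (limma adjusted p = 0.0216), -2.12 ± 0.41 in fibroblasts (0.00712) and -1.74 ± 0.27 in myeloid cells (0.00136).

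In cardiomyocytes Tuba4a was 61.5, 104 and 68.9 CPM in sham and 39.5, 28.7 and 48.8 in I/R, again without overlap, from 1752 and 808 UMIs. The log2 fold change of -0.98 ± 0.27 did not pass (limma adjusted p = 0.147). The effect in cardiomyocytes minus that in endothelial cells was 1.21 ± 0.32 on the log2 scale (adjusted p = 0.238 over the 11359 genes tested in both types). Minus that in fibroblasts it was 1.14 ± 0.35 (adjusted p = 0.118), and minus that in myeloid cells 0.76 ± 0.28 (0.133), so a difference between types was not shown with all 9 mice. Without I/R replicate 1, the mouse whose cardiomyocytes stood apart, the difference from fibroblasts was called (1.5 ± 0.31, adjusted p = 0.0499), while those from endothelial cells (1.52, 0.0941) and myeloid cells (0.85, 0.139) were not.

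Transcripts of cardiomyocytes moved with Tuba4a. A list of 12 such transcripts, among them Myl2, Tnni3, Actc1 and Ckm, summed to 8838 to 12740 CPM in sham endothelial cells and 3365 to 6406 in I/R. In fibroblasts the sums were 5310 to 7650 and 1735 to 3014. Myeloid sums were 6736 to 8406 and 1753 to 3547, and those of cardiomyocytes themselves 20272 to 20551 and 9017 to 16837. No gene of the list was at 0 in any type or group. Of the 12, 10 were called lower in I/R endothelial cells, 11 in fibroblasts, 12 in myeloid cells and 2 in cardiomyocytes. The 3 genes whose log levels were most like those of Tuba4a over the 36 sums of mouse and type were Myl2 (Pearson r = 0.929), Actc1 (0.901) and Tnni3 (0.899), among 10024 genes compared. These sums share libraries and depth, so the values are a description.

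Relative to the list, Tuba4a of I/R mice lay below that of sham mice without overlap in 2 of the 3 types where it was called. Per 1000 UMIs of the list, sham mice held 6.63, 7.67 and 6.54 UMIs of Tuba4a in endothelial cells and I/R mice 5.43, 2.58 and 2.83. In fibroblasts the values were 6.49, 6.81 and 5.92 in sham and 5.67, 1.95 and 3.71 in I/R. In myeloid cells they were 6.27, 7.94 and 6.6 in sham and 6.58, 8.75 and 3.6 in I/R, which overlapped. In cardiomyocytes the means were 3.83 ± 1.09 in sham and 3.04 ± 0.642 in I/R. Per list UMI, Tuba4a of every sham mouse was higher in each of the other 3 types than in cardiomyocytes. The sham means of those 3 types lay close together (fibroblast 6.41 ± 0.451, myeloid 6.94 ± 0.881, endothelial 6.95 ± 0.631). For SBP cardiomyocytes the mean was 2.47 ± 0.641. The ratio was not measured in RNA from outside the nucleus, and the part of such RNA in these values was not tested.

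Without the 10% of nuclei richest in these transcripts in each type, the Tuba4a difference was -1.91 in fibroblasts (adjusted p = 0.00706), -1.42 in myeloid cells (0.00754) and -1.63 in endothelial cells, where it no longer passed (0.0626). An endothelial subcluster led by Pgam2, Tnnc1, Actc1 and Ckm, with Tuba4a itself among its 10 leading genes, held 4.32 to 8.72% of the endothelial nuclei of sham mice, 1.14 to 1.98% in I/R and 0.54 to 2.87% in SBP. Leaving out this subcluster, a step chosen after seeing the data, gave -1.82 (adjusted p = 0.048). The part that cardiomyocyte RNA from outside the nucleus plays in the Tuba4a difference was not tested.

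**Figure D2:**
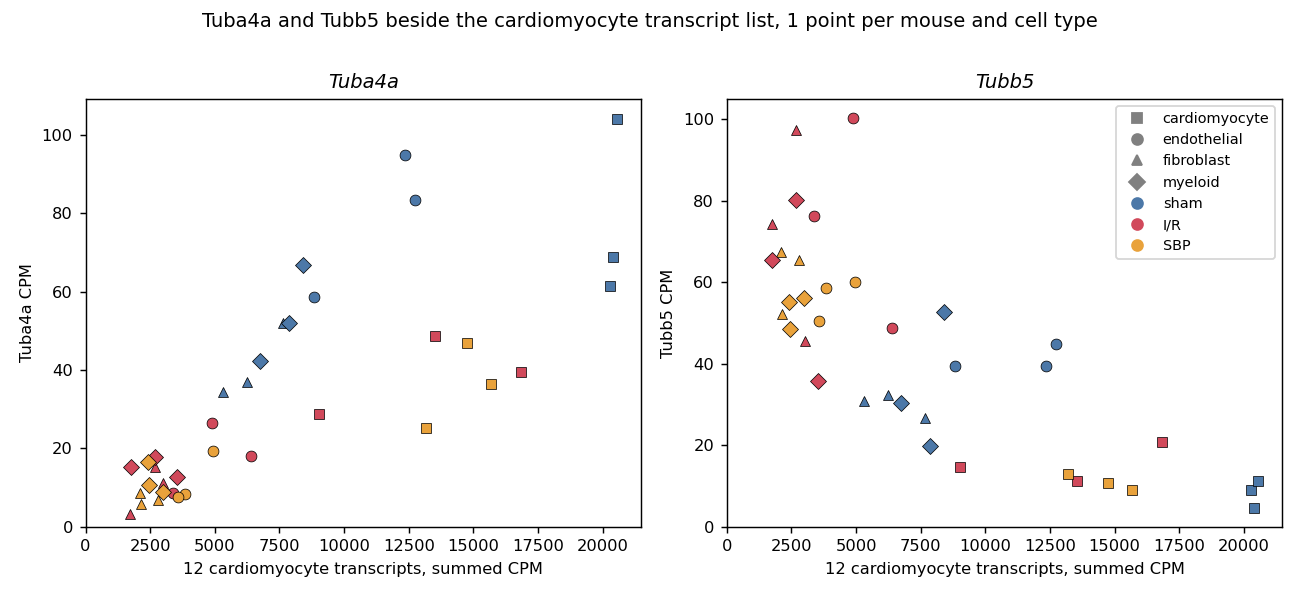
Tuba4a (left) and Tubb5 (right) in CPM on the y axis against the summed CPM of the 12 cardiomyocyte transcripts on the x axis, with 1 point per mouse and cell type, marker shapes for types and colours for groups. Within endothelial cells, fibroblasts and myeloid cells the sham mice lie at higher x and higher Tuba4a than the injured mice, while for Tubb5 the sham mice lie below or among the injured mice.

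Tuba1c differed the other way. In endothelial cells it was 0.563, 2.91 and 2.86 CPM in sham, from 1, 9 and 7 UMIs, and 15.1, 20.8 and 11.2 in I/R, from 33, 48 and 31 UMIs. In fibroblasts it was 6.72, 2.17 and 5.14 in sham and 24.9, 27.6 and 13.1 in I/R. In myeloid cells it was 23.7, 20.2 and 17.5 in sham and 44.1, 57.6 and 26.8 in I/R. No sham mouse reached an I/R mouse in these types. The log2 fold change was 2.5 ± 0.54 in endothelial cells (limma adjusted p = 0.0303), 2.04 ± 0.37 in fibroblasts (0.00484) and 0.97 ± 0.29 in myeloid cells (0.0374). All sham endothelial values lay below the filter, which the 3 I/R mice and 2 SBP mice passed, so this test was not independent of the filter; with no filter the change was 2.51 (0.0184). In cardiomyocytes, where the groups overlapped at 7.78 to 14 and 9.52 to 20.1 CPM, it was 0.56 ± 0.29 (0.41).

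Tuba1c was also read as a share of the UMIs of Tuba1a, Tuba1b and Tuba1c together. This share rests on the same split of UMIs among near-identical genes. It therefore cannot tell a change of Tuba1c from a change in how shared reads were assigned. In endothelial cells the share was 0.84, 3.59 and 3.85% in sham and 12.6, 24 and 17.7% in I/R. In fibroblasts it was 8.57, 2.12 and 7.81% against 17.4, 26.2 and 16.7%. In myeloid cells it was 38.9, 25.8 and 29.6% against 33.2, 51.8 and 35.2%, with overlap. Tuba1a and Tuba1b were not called in any type. Their log2 fold changes ran from -0.27 (Tuba1a, endothelial, limma adjusted p = 0.532) to 0.65 (Tuba1b, myeloid, 0.11). Transcripts of injury-associated myeloid cells moved in the same direction as Tuba1c: of a list of 8, among them Spp1, Arg1, Lgals3 and Gpnmb, 6 were called higher in each of the I/R endothelial, fibroblast and myeloid sums and 5 in cardiomyocytes. Their summed levels in sham and I/R mice were 28 to 54 and 345 to 1108 CPM in endothelial cells, 24 to 53 and 272 to 635 in fibroblasts, 220 to 330 and 1870 to 2909 in myeloid cells and 9 to 15 and 96 to 311 in cardiomyocytes. Arg1 and Spp1 were at 0 in sham fibroblasts and Arg1 in sham myeloid cells. In the order endothelial cells, fibroblasts, myeloid cells and cardiomyocytes, 5, 3, 4 and 4 of the called genes had no sham mouse at the filter on low genes, so they could be tested only where injured mice were high, and the counts rest in part on that. Their part in the Tuba1c difference was not tested.

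Tubb5 rose in fibroblasts. It was 30.9, 26.8 and 32.2 CPM in sham and 97.4, 74.4 and 45.7 in I/R, without overlap. The log2 fold change was 1.18 ± 0.24 (limma adjusted p = 0.00797). In endothelial cells it was 39.4, 39.5 and 44.9 in sham and 100, 76.4 and 48.9 in I/R, again without overlap, and the log2 fold change of 0.79 ± 0.22 did not pass (0.0766). It passed under 4 of the alternatives, with types from marker scores (0.93, 0.0425), without the 10% of nuclei richest in cardiomyocyte transcripts (1, 0.0292), without the unnamed endothelial subclusters (1.17, 0.0106) and without I/R replicate 3 (1.06, 0.00723). Myeloid cells (0.83 ± 0.35, adjusted p = 0.127) and cardiomyocytes (0.87 ± 0.3, 0.238) had like values with overlapping groups. The genes nearest to Tubb5 over the 36 sums were the ribosomal protein genes Rpl41 (r = 0.96), Rps27a (0.959) and Rpl8 (0.955), and for Tuba1b the nearest were Ptma (0.93), Rps10 (0.926) and Cep162 (0.924).

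Tubb2a rose in fibroblasts from 17.5, 18.1 and 13.7 CPM in sham to 30.2, 25.9 and 25.5 in I/R, with a log2 fold change of 0.7 ± 0.18 (limma adjusted p = 0.0255). In myeloid cells it was 33.8, 36.9 and 36.6 in sham and 33.7, 17.4 and 26.8 in I/R (-0.49 ± 0.24, adjusted p = 0.189). The difference between these effects was itself called, at 1.19 ± 0.22 (adjusted p = 0.0127 over the 10512 genes tested in both types, of which 6.64% were called and 23.3% had an unadjusted p under 0.05). Without sham replicate 3 it was 1.04 (0.0519). Of the 8 members 1 was thus called and 2 had an unadjusted p under 0.05, near the shares of all genes. No member was called by limma in the other 5 comparisons of effects between types, where 0.0264% (cardiomyocyte minus endothelial), 2.1% (cardiomyocyte minus fibroblast), 5.27% (cardiomyocyte minus myeloid), 0.519% (endothelial minus fibroblast) and 3.18% (endothelial minus myeloid) of all genes were called. At an unadjusted p under 0.05 these 5 comparisons held 4, 2, 3, 2 and 4 of the 8 members tested, beside 11.3, 18.9, 23.3, 15.5 and 21.4% of all genes. The counts for endothelial cells with cardiomyocytes and with myeloid cells include Tuba1c, which passed the endothelial filter through injured mice alone. Tubb2b, in tandem with Tubb2a, was 1.34, 0.724 and 1.37 CPM in sham fibroblasts (9 UMIs) and 7.01, 3.38 and 2.38 in I/R (51 UMIs), a log2 fold change of 1.21 ± 0.36 that did not pass (0.0514). No sham mouse reached the filter on low genes, so this test too depended on the injured mice being high. It was called with totals alone (0.047), with a pseudocount of 0.5 (0.0482) and without I/R replicate 3 (0.0258).

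Tubb6 rose in endothelial cells, from 7.32, 4.85 and 3.27 CPM in sham to 13.7, 13.9 and 14.8 in I/R, and the I/R mice lay close together. The log2 fold change was 1.35 ± 0.28 (limma adjusted p = 0.0229). In fibroblasts, where its level was highest, it was 26.1 ± 7.95 in sham and 30.8 ± 5.18 in I/R (0.27 ± 0.23, adjusted p = 0.526). Tubb4b was 56.3, 54.7 and 73.5 in sham endothelial cells and 39.4, 31.7 and 48.9 in I/R, without overlap. Its log2 fold change of -0.62 ± 0.19 did not pass (0.0985). In the other 3 types it lay between -0.22 and -0.04.

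In cardiomyocytes limma called none of the 8 members and none was called with voom weights, while 4 had an unadjusted p under 0.05, as 14.1% of all genes did. These were Tuba4a, Tubb2a (2 ± 0.363 CPM in sham and 3.78 ± 0.443 in I/R), Tubb5 (8.27 ± 3.33 and 15.5 ± 4.85) and Tubb6 (3.24 ± 0.756 and 5.37 ± 0.876). The groups did not overlap for Tuba4a, Tubb2a and Tubb6, as for the 16.4% of all genes given above.

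Single mice decided several calls. In endothelial cells no member was called without sham replicate 2, without sham replicate 3 or without I/R replicate 2. Without I/R replicate 1 or sham replicate 1, Tuba4a and Tubb6 were called there, and without I/R replicate 3, 5 members were called, Tubb5 and Tubb4b in addition. In fibroblasts Tuba4a, Tuba1c and Tubb5 were called without any 1 mouse, and Tubb2a was lost without I/R replicate 1 or 2, sham replicate 1 or 3, or SBP replicate 2, and also without the 10% of nuclei richest in cardiomyocyte transcripts (0.66, adjusted p = 0.0519). In myeloid cells Tuba4a was called without any 1 mouse, and Tuba1c was lost without any of the 3 sham mice or without I/R replicate 1 or 2. Tubb5 was called there in addition without sham replicate 2 (1.2, 0.0333) or I/R replicate 3 (1.18, 0.0318), and Tuba1b without the 10% of nuclei richest in cardiomyocyte transcripts (0.9, 0.0389). Voom weights lost endothelial Tuba1c (adjusted p = 0.082) and myeloid Tuba1c (0.0715), which types from marker scores lost too (0.0711). A fit of only the 6 samples compared lost Tubb6 in endothelial cells (0.0503) and Tubb2a in fibroblasts (0.0729).

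**Figure D3:**
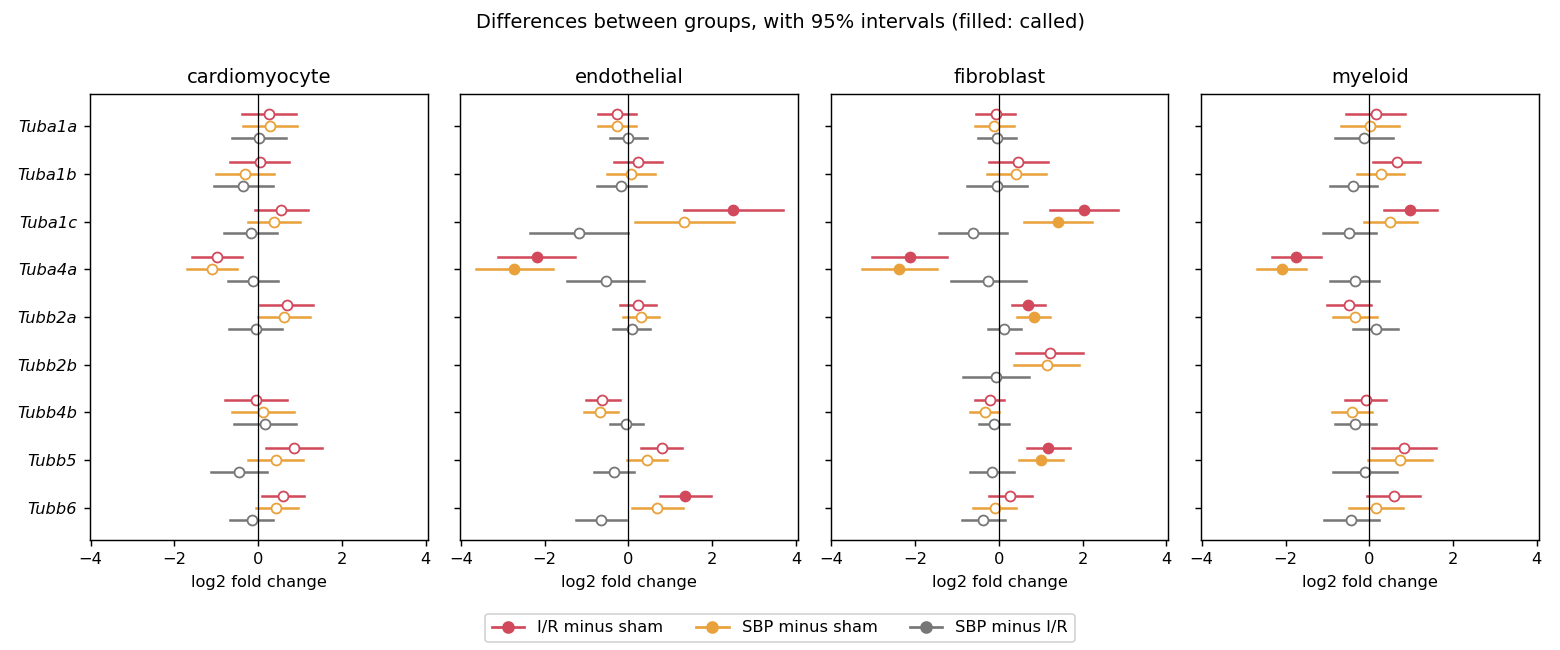
Log2 fold change of each tubulin gene with its 95% interval in 4 cell types, with colours for I/R minus sham, SBP minus sham and SBP minus I/R and filled points for called changes. Tuba4a lies left of 0 in I/R and SBP against sham in all 4 types, and no point of SBP minus I/R is filled.

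Nuclei with transcripts of dividing cells had a higher share in every injured mouse than in any sham mouse among fibroblasts, at the depth of each library. Nuclei with 2 or more UMIs of 20 cycling genes made up 0.2, 0.44 and 0.07% of sham fibroblasts, 16.14, 9.74 and 4.59% of I/R and 6.69, 10.65 and 3.4% of SBP fibroblasts. All 20 cycling genes were called higher in I/R fibroblasts, but 12 of them had no sham mouse at the filter on low genes and so could be tested only through injured mice. The smallest adjusted p was that of the spindle protein gene Prc1 (0.27 ± 0.238 CPM in sham, 37.4 ± 14.6 in I/R, limma adjusted p = 2.07e-05). The I/R mice ranked by Tubb5 (97.4, 74.4, 45.7 CPM) as they ranked by cycling nuclei. The 2 orders also matched in endothelial and myeloid cells. In cardiomyocytes they did not, with Tubb5 at 20.7, 14.7 and 11.1 CPM and cycling nuclei at 4.9, 1.38 and 1.77%. An order of 3 mice is a description only, and a link between the 2 was not tested. Without the cycling nuclei, Tubb5 was 0.9 on the log2 scale (adjusted p = 0.0601) and Tubb2a 0.63 (0.0678), and neither passed. Tuba1c (1.8, 0.0281) and Tuba4a (-2.09, 0.0279) did. In endothelial cells 3 cycling genes were called higher, none with a sham mouse at the filter, cycling nuclei made up 0.13 to 0.3% in sham and 0.75 to 2.82% in I/R, and the 3 calls were kept without them.

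The fibroblasts of the groups also lay in different clusters. A cluster led by Kcnip1 and Tll2 held 75.74 to 81.55% of sham fibroblasts and 1.12 to 18.2% in I/R. A cluster led by Lvrn and Scara5 held 18.31 to 24% in sham and 47.8 to 89.47% in I/R. Another, led by Adam12, Tnc and Postn, held 0.14 to 0.25% in sham, 9.41 to 34% in I/R and 9.73 to 22.37% in SBP. Tnc and Postn encode matrix proteins of activated fibroblasts. This last cluster had, over the 6 injured mice, Tubb5 115 ± 15.1 CPM, Tuba1b 59.4 ± 16.5, Tubb2a 42.9 ± 2.08, Tubb6 38.2 ± 6.97, Tuba1c 30.3 ± 4.84 and Tubb2b 9.86 ± 3.39. In the Scara5 cluster the same genes were at 38.5 ± 12.2, 25.7 ± 8.67, 20.3 ± 5.14, 24.1 ± 6.12, 10.2 ± 6.74 and 1.24 ± 0.932 over 9 mice.

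Within the Scara5 cluster alone, which every mouse had, mean Tubb5 in sham, I/R and SBP mice was 26.9 ± 6.71, 46 ± 14.5 and 42.7 ± 5.59 CPM. Tuba1c was 4.96 ± 3.43, 16.4 ± 7.72 and 9.14 ± 3.13, and Tuba4a was 37 ± 5.65, 11 ± 7.02 and 7.49 ± 2.16. Tubb2a, in contrast, was 18.7 ± 7.82, 19 ± 2.62 and 23.3 ± 4.24, with sham and I/R means close together. These values are descriptions within clusters built from the same nuclei, and the part of the shift between clusters in the differences of all fibroblasts was not tested.

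Myeloid nuclei shifted likewise, from a cluster led by Cd163 and F13a1 (90.29 to 94.34% of sham myeloid nuclei, 15.65 to 49.18% in I/R) to one led by Gpnmb and Arg1 (1.38 to 1.74% in sham, 43.09 to 72.7% in I/R). Within the Cd163 cluster, mean Tuba4a in sham, I/R and SBP mice was 55.4 ± 14.9, 9.73 ± 4.21 and 8.41 ± 1.63 CPM, while Tuba1c stood at 17.2 ± 2.24, 38.4 ± 15.9 and 21.1 ± 3.56. Tubb2a there was 38.5 ± 3.03, 20.5 ± 10.3 and 23.5 ± 6.51. A small myeloid cluster led by cycling genes such as Top2a (212 nuclei from 4 mice) had Tubb5 at 135 ± 76.9 and Tuba1c at 68.8 ± 29.9, the highest mean of each over the clusters. These mice were sham replicate 2, I/R replicate 1 and SBP replicates 1 and 2. Cycling genes were not higher as a list in I/R myeloid cells. The 20 genes summed to 189 to 492 CPM in sham and 191 to 513 in I/R mice. Of 14 tested there, 1 was called, beside 17.2% of all genes. It was Kif23, which was lower in I/R (log2 fold change -1.43 ± 0.44, limma adjusted p = 0.0484). Clusters differ in the mice that they average, so their order is a description only.

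Endothelial nuclei shifted between subclusters. A capillary-like subcluster led by Gm12002 and Cdh23 held 35.5 to 46.65% of sham endothelial nuclei, 0.53 to 3.21% in I/R and 0.84 to 5.12% in SBP. Another, led by Vwa3a, Gpr160 and Car4, held 0.4 to 3.12% in sham, 36.95 to 48.17% in I/R and 26.93 to 30.61% in SBP. Of the 9 subclusters, the shares of 4 did not overlap between I/R and sham, of 5 between SBP and sham, and of 1, the Vwa3a subcluster, between SBP and I/R. The Gm12002 subcluster had Tuba4a at 59.5 ± 11.9 CPM, Tuba1c at 1.47 ± 0.735 and Tubb6 at 4.67 ± 2.34 in the 3 sham mice, and the Vwa3a subcluster had 17.9 ± 7.69, 23.3 ± 13.6 and 19.1 ± 2.56 in the 3 I/R mice.

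A subcluster led by Tmem108 and Nrg1, left unnamed, had like shares in all groups (17.49 to 36.07% in sham, 21.83 to 33.64% in I/R and 26.58 to 38.06% in SBP). Within it, mean Tuba4a in sham, I/R and SBP mice was 50.9 ± 29.8, 19.6 ± 10.7 and 7.97 ± 1.26 CPM. Tuba1c was 2.02 ± 1.79, 12.5 ± 4.22 and 5 ± 2.12, and Tubb6 4.78 ± 2.28, 10.9 ± 4.25 and 6.09 ± 1.42. The part of the shift between subclusters in the differences of all endothelial cells was not tested.

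**Figure D4:**
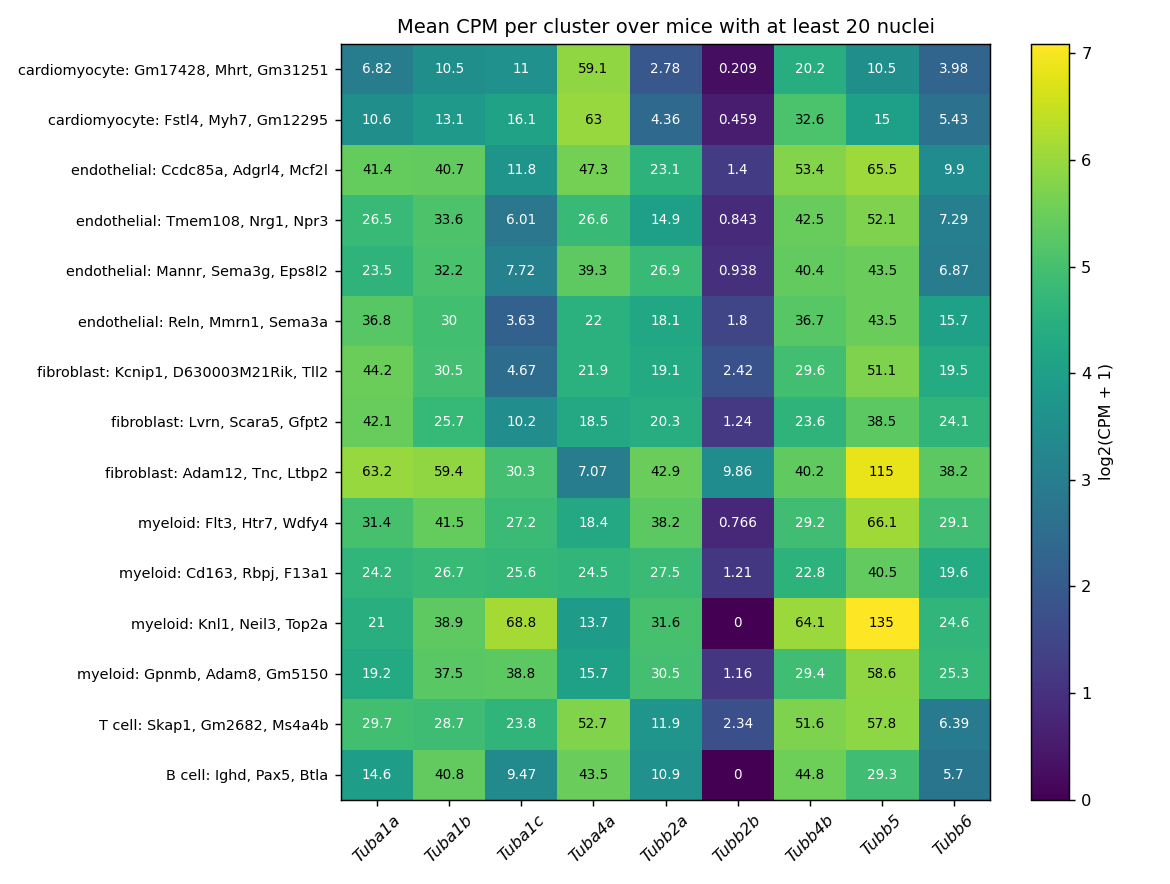
Mean CPM of each tubulin gene (columns) in the larger nucleus clusters (rows, named by cell type and leading genes). Means are over the mice with at least 20 nuclei in the cluster and carry no TMM factor. Smaller clusters, among them a myeloid one led by Il1r2 and S100a9, are not shown. The fibroblast cluster led by Adam12 and Tnc and the myeloid cluster led by Knl1 and Top2a hold the highest Tubb5 values among the clusters shown of these types, 115 and 135 CPM.

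SBP was compared with sham under the same test, and these contrasts share the sham mice with those of I/R, so they are not independent. Tuba4a fell in endothelial cells, fibroblasts and myeloid cells of SBP mice, and Tuba1c, Tubb5 and Tubb2a rose in fibroblasts. Of the tested members 4 of 9 were called in fibroblasts beside 5.91% of all genes, 1 of 8 in endothelial cells beside 2.23%, 1 of 8 in myeloid cells beside 12.6% and 0 of 8 in cardiomyocytes beside 0.14%. In cardiomyocytes 1 member, Tuba4a, had an unadjusted p under 0.05, beside 13.3% of all genes, and voom weights called none. The same p was reached by 5 of 9 members in fibroblasts (19.6% of all genes), 4 of 8 in endothelial (15.7%) and 1 of 8 in myeloid cells (28.3%). These counts and the medians below again include Tubb2b in fibroblasts and Tuba1c in endothelial cells. Both passed the filter on low genes through injured mice alone, so they could be tested only if high there. Over all genes, SBP and sham mice did not overlap for 34.4% of the myeloid, 27.1% of the fibroblast, 24.2% of the endothelial and 23.3% of the cardiomyocyte genes. The median log2 fold change of the members was 0.41 in fibroblasts, 0.18 in endothelial cells, 0.08 in myeloid cells and 0.33 in cardiomyocytes.

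Tuba4a in the SBP mice was 8.31, 19.3 and 7.68 CPM in endothelial cells, 6.75, 8.61 and 5.85 in fibroblasts, 8.84, 16.4 and 10.7 in myeloid cells and 25.3, 46.8 and 36.4 in cardiomyocytes. Every SBP mouse lay below every sham mouse in all 4 types. The log2 fold change against sham was -2.73 ± 0.41 in endothelial cells (limma adjusted p = 0.0116), -2.38 ± 0.41 in fibroblasts (0.00627), -2.09 ± 0.27 in myeloid cells (0.000659) and, not passing, -1.1 ± 0.27 in cardiomyocytes (0.126). The 12 cardiomyocyte transcripts moved with it here too, with 10, 11, 12 and 0 called lower in these 4 types. The endothelial call was lost without sham replicate 3 or SBP replicate 3, and the highest adjusted p over the alternatives was 0.0608.

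In SBP fibroblasts Tuba1c was 14.3, 16.7 and 9.67 CPM, Tubb5 65.5, 67.4 and 52.2 and Tubb2a 26.7, 30.1 and 32.8, each above all sham mice. The injury-associated myeloid transcripts were higher here too, with 5 of 8 called in fibroblasts, 3 of them with no sham mouse at the filter, and sums of 163 to 310 CPM beside 24 to 53 in sham, and their part was not tested. For Tuba1c, Tubb5 and Tubb2a the log2 fold changes were 1.42 ± 0.37 (limma adjusted p = 0.0446), 1.01 ± 0.24 (0.0275) and 0.83 ± 0.18 (0.0171). The Tuba1c call was lost under 12 of 22 alternatives, among them a pseudocount of 5 (0.0585), voom weights (0.128), removal of the highest scoring doublets (0.0547), types from marker scores (0.0604) and removal of the 10% of nuclei richest in cardiomyocyte transcripts (0.0694). The Tubb5 call was lost under 7 and the Tubb2a call under 4 of the 22. Single mice decided these calls too. Leaving out sham replicate 1 lost Tubb5. Leaving out sham replicate 3 or SBP replicate 2 left Tuba4a alone, leaving out sham replicate 2 or SBP replicate 1 left Tuba4a and Tubb2a, and leaving out SBP replicate 3 left Tuba4a and Tubb5. Without cycling nuclei Tuba4a alone was called (-2.31, 0.0338). In endothelial cells Tuba1c was 11.7, 8.72 and 2.02 in SBP, which overlapped sham (1.33 ± 0.54, adjusted p = 0.255), and Tubb6 was 7.56, 8.26 and 10.1, above all sham mice (0.69 ± 0.28, 0.245). In myeloid cells Tuba1c was 39.4, 28.2 and 22.1 (0.5 ± 0.29, 0.287).

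SBP was compared with I/R to see what the pill changed in injured hearts. No tubulin gene was called in any of the 4 types by limma or with voom weights, and neither was any other gene, so the background was 0% in each. At an unadjusted p under 0.05 there was 1 of the 33 member tests, beside 5.13% of the endothelial, 3.94% of the myeloid, 3.54% of the fibroblast and 2.14% of the cardiomyocyte genes tested, so the count was near that of all genes. It was Tubb6 in endothelial cells, with a log2 fold change of -0.66 (95% interval -1.26 to -0.06, limma adjusted p = 0.962). Its levels were 13.7, 13.9 and 14.8 CPM in I/R and 7.56, 8.26 and 10.1 in SBP, which did not overlap, as for 9.46% of all endothelial genes (9.33% of the myeloid, 8.39% of the fibroblast and 5.53% of the cardiomyocyte genes). The groups did not overlap either for Tubb6 in fibroblasts (30.8 ± 5.18 CPM in I/R, 23.6 ± 2.62 in SBP). The same held for Tubb4b in myeloid cells (29.9 ± 6.58 and 23.3 ± 1.75). Endothelial Tuba1c was -1.17 ± 0.54 (interval -2.35 to 0, adjusted p = 0.962). For Tuba4a the interval was -1.46 to 0.37 in endothelial cells, -1.15 to 0.64 in fibroblasts, -0.94 to 0.23 in myeloid cells and -0.71 to 0.48 in cardiomyocytes. For Tubb5 in fibroblasts it was -0.69 to 0.35, and for Tubb2a there -0.26 to 0.52. These intervals give the range of differences that fit the data of 3 mice a group. All but that of endothelial Tubb6 reach 0 or cross it. The median of the members lay below 0 in all 4 types, at -0.26 in endothelial cells, -0.12 in fibroblasts, -0.34 in myeloid cells and -0.13 in cardiomyocytes. The median of all genes lay between -0.004 and 0.004. These medians were not tested, and the 4 types come from the same mice, so they are not independent. They again include endothelial Tuba1c and fibroblast Tubb2b, which passed the filter on low genes through injured mice alone.

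The make-up of the tubulin pool was read as the share of each gene among the alpha or the beta UMIs of a type, which does not depend on scaling. Such a share still includes any RNA from outside the nucleus. Tuba4a moved with cardiomyocyte transcripts in endothelial cells, fibroblasts and myeloid cells, as given above. Their part in its shares and in the alpha totals below was not tested. Shares of 1 family sum to 100%, so a lower share of 1 gene raises the others. Tuba4a made up 71.8, 75.3 and 72.5% of the alpha UMIs of sham cardiomyocytes and 50.2, 44.7 and 58.8% in I/R. In endothelial cells the share was 46.6, 53.9 and 52.8% in sham and 18.2, 9.09 and 22.2% in I/R. Mean shares in sham, I/R and SBP fibroblasts were 33.4 ± 2.73, 8.41 ± 4.81 and 6.88 ± 0.937%, and those in myeloid cells 44.6 ± 3.14, 12.7 ± 1.41 and 13.2 ± 4.62%. Among beta UMIs of fibroblasts the Tubb5 share in the same order of groups was 27.8 ± 2.29, 43.2 ± 8.28 and 42.3 ± 3.67%, while that of Tubb4b was 31.9 ± 3.75, 18.4 ± 5.07 and 18.5 ± 1.28%. In endothelial cells Tubb4b made up 48.7 ± 2.86% in sham and 26.8 ± 8.11% in I/R, and Tubb5 made up 32.9 ± 1.14% and 48.7 ± 10.8%.

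These shares are given as descriptions, because the exact permutation test chosen for them cannot give a p below 0.1 (two-sided) with 3 mice against 3. The shares named above did not overlap between sham and I/R mice, as for 21 of all 36 shares of a gene in a type. Between SBP and sham mice 23 of the 36 did not overlap, and between SBP and I/R mice 0. Shares of 1 family are not independent of each other. The total of the 4 alpha genes was 153 ± 25.5 CPM in sham endothelial cells, 108 ± 33.9 in I/R and 85.8 ± 12.5 in SBP, and the total of the 5 beta genes was 126 ± 13.7, 152 ± 26 and 126 ± 6.5. In fibroblasts the alpha total was 123 ± 27.4, 119 ± 35.4 and 102 ± 9.44, and the beta total 108 ± 11.8, 164 ± 29.8 and 146 ± 8.87.

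**Figure D5:**
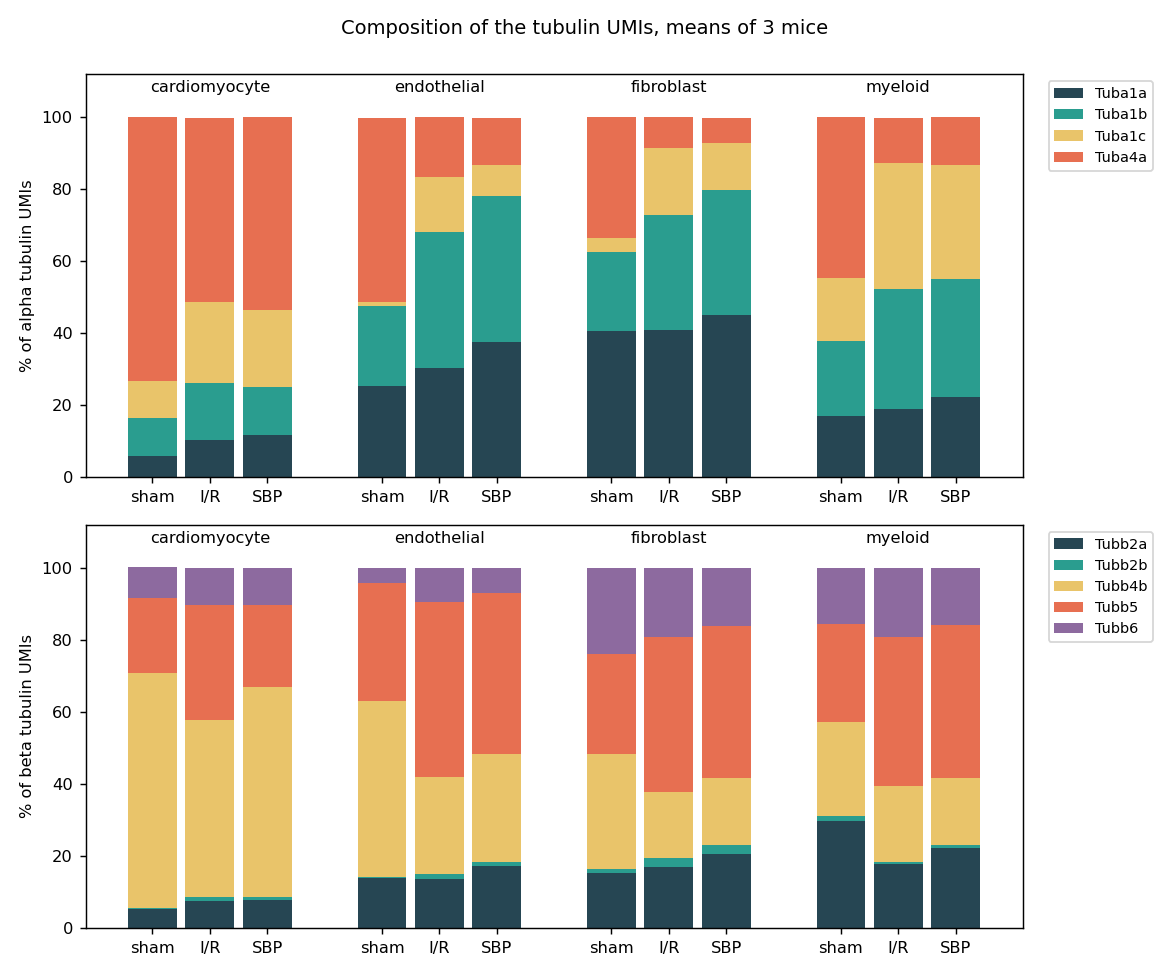
Stacked bars of the mean share (%) of each gene among alpha-tubulin UMIs (top) and beta-tubulin UMIs (bottom) by cell type and group, means of 3 mice. In endothelial cells the Tuba4a segment is 51.1% in sham and 16.5% in I/R, and in fibroblasts the Tubb5 segment is 27.8% in sham and 43.2% in I/R.

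Other tubulin genes and genes that act on tubulin were called at shares that can be read beside those of all genes in the same contrast, given above. Of 11 further alpha, beta, gamma, delta and epsilon genes, 3 to 6 were tested in a type, and the one called was Tuba8, an alpha isotype of muscle. It fell in I/R fibroblasts from 14.8 ± 3 to 2.77 ± 1.44 CPM (log2 fold change -2.13 ± 0.34, limma adjusted p = 0.00223) and in SBP fibroblasts, endothelial cells and myeloid cells, with log2 fold changes of -2.13, -2.19 and -2.33. The 12 cardiomyocyte transcripts were lower in the same sums, at 2101 to 2798 CPM in SBP fibroblasts, 3558 to 4944 in SBP endothelial cells and 2420 to 2998 in SBP myeloid cells, beside the sham and I/R ranges given with Tuba4a, and their part in the Tuba8 difference was not tested. In myeloid cells Tuba8 was 11.5 ± 1.77 CPM in sham and 1.93 ± 1.67 in SBP. No SBP mouse reached the myeloid filter on low genes (7.09 CPM), so this test depended on mice where Tuba8 was higher. Of 22 genes for tubulin folding, all tested in every type, none was called in cardiomyocytes, endothelial cells or fibroblasts, and 2 of 22 were called in each injured group in myeloid cells, where 17.2% (I/R) and 12.6% (SBP) of all genes were. There Tbcd, a cofactor that assembles and releases the dimer, rose from 85.1 ± 11.3 to 142 ± 7.09 in I/R (0.74 ± 0.14, 0.00496) and to 136 ± 7.01 in SBP (0.67, 0.0108). Cct8, a subunit of the chaperonin that folds tubulin and actin, rose in I/R (0.67, 0.0492), and Pfdn4 of prefoldin fell in SBP (-1.22, 0.0337). Pfdn4 was 10.4 ± 2.08 CPM in sham and 3.91 ± 0.949 in SBP myeloid cells. No SBP mouse reached the filter for it either, so its test depended on mice where it was higher.

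Of 22 genes of tubulin modification, 1 of 21 tested was called in I/R fibroblasts, beside 11.3% of all genes, and 1 of 16 in I/R myeloid cells, beside 17.2%. They were Vash2, a detyrosinating enzyme (2.82 ± 0.66 CPM in sham, 6.77 ± 0.788 in I/R, limma adjusted p = 0.0272), and Ttll1, a polyglutamylase (14 ± 1.94 and 6.29 ± 0.721, 0.023). Of 28 genes of microtubule-associated proteins, 21 to 25 were tested in a type. In I/R limma called 2 of 25 in fibroblasts (11.3% of all genes), 1 of 24 in endothelial cells (3.16%), 0 of 21 in myeloid cells (17.2%) and 0 of 23 in cardiomyocytes (0.829%), and in SBP 1 of 25 in fibroblasts (5.91%) and 1 of 21 in myeloid cells (12.6%). Stmn1, which binds free dimers and promotes microtubule loss, rose in fibroblasts from 1.25 ± 0.804 in sham to 8.59 ± 2.95 in I/R (0.0043) and 7.01 ± 2.94 in SBP (0.0139). It also rose in I/R endothelial cells from 3.62 ± 0.357 to 9.92 ± 1.56 (0.0298). No sham mouse reached the filter for Stmn1 in either type, so it could be tested only through injured mice. Map2 fell in I/R fibroblasts (-0.79, 0.044) and Clip2 rose in SBP myeloid cells (0.81, 0.0202). None of these 3 lists had a member called in cardiomyocytes.

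Genes of the other filaments were called in every type in I/R. Of 12 actin, actin-binding and intermediate filament genes, all tested, 4 were called higher in I/R fibroblasts (11.3% of all genes called), 6 in myeloid cells (17.2%), 2 in endothelial cells (3.16%) and 2 in cardiomyocytes (0.829%), and none lower. In SBP minus sham limma called 3 in fibroblasts (5.91%), 4 in myeloid cells (12.6%), 2 in cardiomyocytes (0.14%) and none in endothelial cells (2.23%), all higher. Actb, encoding beta-actin, rose in I/R cardiomyocytes from 104 ± 8.58 to 303 ± 54.6 CPM (log2 fold change 1.52 ± 0.19, limma adjusted p = 0.00498) and Vim, encoding vimentin, from 17 ± 4.06 to 41 ± 7.95 (0.026). Both genes are widely expressed in other cell types, and transcripts of injury-associated myeloid cells were higher in the same cardiomyocyte sums, with 5 of 8 called, 4 of these with no sham mouse at the filter. Their part in these differences was not tested. In fibroblasts the called genes were Plec, Actb, Vim and Cfl1. In the order cardiomyocytes, endothelial cells, fibroblasts and myeloid cells, the list's median log2 fold change was 0.57, 0.5, 0.7 and 0.97, beside 0.41, 0.23, 0.46 and 0.36 for the tested tubulin genes. No difference between these lists was tested.

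In the small cell types no test was made. T cells, with at least 20 nuclei in all 9 mice, had Tuba4a at 79.3 ± 10.4 CPM in sham (26 UMIs), 56.1 ± 40.2 in I/R (18 UMIs) and 22.8 ± 1.61 in SBP (6 UMIs). Their Tubb5 was 34.5 ± 2.37, 67.6 ± 58.4 and 71.3 ± 12. With so few UMIs single mice ranged widely, and an order of the groups could not be read.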

How the data were processed

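Nuclei of 9 hearts were profiled by droplet sNuc-seq. The authors aligned reads to the mouse genome with Cell Ranger, down-sampled samples to similar reads per cell, filtered nuclei and removed mitochondrial genes, and the deposited values are the natural log of 1 plus the UMI share scaled to 10000 per nucleus, without pooling of replicates. The submitters' processing notes name Cell Ranger 4.0, STAR and Seurat 3.2.0, while the study's methods name other versions of Cell Ranger and Seurat, and which made these tables is not given in the sources used here. The tables hold fewer nuclei than the study states. UMIs were recovered from the deposited values by rounding, and before rounding at least 99.9994% in each sample lay close to a whole number.

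A doublet caller marked 123 of 49171 nuclei (0.25%), too few to count as having worked. These were removed, and removal of the 2168 highest scoring nuclei was tried as an alternative. The 49048 nuclei left were clustered in scanpy 1.11.5 (Python 3.11.15) without tubulin genes (19 clusters) and named from marker genes. Typing each nucleus by marker scores instead agreed for 81.1%. UMIs were summed per mouse and type, with at least 20 nuclei. Genes were kept at the CPM of 10 UMIs in the median library in at least 3 samples and 15 UMIs in all. Log2(CPM + 1) was fitted over the 3 groups with limma 3.58.1 (R 4.3.3; trend, robust), with Benjamini-Hochberg adjustment over all genes tested, so a fold change understates that of low genes. Differences of effect between types were fitted in limma on each mouse's difference. The test was also run on simulated counts whose changes were larger than several of those called here. That run held no shifts of single mice, so it does not bear on smaller changes or on such shifts. Levels of clusters and small types carry no TMM factor. Shares of the alpha and beta pools were planned for exact permutation tests (scipy 1.17.1), which cannot pass with 3 mice a group, so they are described.

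All 9 members are named; from each further list, up to 4 genes called with the smallest adjusted p were named per type and contrast. Members and lists were chosen with earlier results of these data known. Each mouse is 1 sample. Alternatives covered scaling, filter, pseudocount, weights, typing, doublets, left-out mice and left-out nuclei.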

Additional observations from a re-analysis of the deposited data

Results flagged for a closer look

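One result was singled out because the effect of I/R differed between cell types by a test of the difference itself. The I/R effect on Tubb2a was 0.7 on the log2 scale in fibroblasts and -0.49 in myeloid cells, a difference of 1.19 ± 0.22 (limma adjusted p = 0.0127). It was the 1 member called of 8 tested, beside 6.64% of all genes, so the tubulin genes as a list were near the background. Fibroblast levels were higher in 3 of 3 I/R mice than in any sham mouse, and myeloid levels were lower in 3 of 3, by a margin of 33.7 against 33.8 CPM at the nearest pair. The difference was not called without sham replicate 3. The fibroblast call of Tubb2a against sham was lost under 8 of 22 alternatives. Within the Scara5 fibroblast cluster its sham and I/R means were close together, as given above.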

How the results depend on the processing

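Of 15 called effects of tubulin genes against sham, 5 were called under every alternative run, namely Tuba4a in fibroblasts and myeloid cells against both injured groups and Tuba1c in I/R fibroblasts, and none of the 15 changed sign. Of the 84 effects not called, 31 changed sign under some alternative. A fit of only the 6 samples compared lost Tubb6 in I/R endothelial cells and Tubb2a in I/R fibroblasts, and voom weights lost Tuba1c in I/R endothelial cells. In I/R minus sham, 2 members were called in fibroblasts without cycling nuclei, and 1 in myeloid cells with voom weights or with types from marker scores. In SBP minus sham, 2 were called in endothelial cells when only the 6 samples compared entered the fit, with Tubb4b in addition. In fibroblasts 2 were called with voom weights and 1 without cycling nuclei. Leaving out 1 mouse at a time gave 0 to 5 called members in endothelial cells, 3 to 5 in fibroblasts and 1 to 3 in myeloid cells for I/R minus sham, and 0 to 2, 1 to 4 and 1 for SBP minus sham. The count was 0 in endothelial cells without sham replicate 2, sham replicate 3 or I/R replicate 2 (I/R minus sham), and without sham replicate 3 or SBP replicate 3 (SBP minus sham). For differences of effect between types it ranged from 0 to 1 for cardiomyocyte minus fibroblast (Tuba4a without I/R replicate 1) and 0 to 1 for fibroblast minus myeloid (0 without sham replicate 3). Cardiomyocytes and SBP minus I/R gave 0 throughout. Replicate numbers were not taken to pair the mice in the main fit. Same-numbered mice correlated above 0.1 in 1, 2, 5 and 3 of 9 pairs over the 4 types. Their correlations ran from -0.316 to 0.296 and those of other pairs from -0.231 to 0.377, so a pairing was neither shown nor excluded. With the replicate block 2 members were called in I/R endothelial cells (Tuba4a adjusted p = 0.0658 in limma), 3 in SBP fibroblasts (Tuba1c 0.0522) and the same number as without it elsewhere. UMIs limited Tubb2b in 3 types and endothelial Tuba1c in sham.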
